A study of Mus musculus with 4 samples.

Results

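The nuclear genes for the subunits of respiratory complexes II, III, IV and V were examined in RNA bound to tagged ribosomes of the mouse amygdala. The genes were taken by name: Sdha, Sdhb, Sdhc and Sdhd, and every symbol starting with Uqcr, Cox4i, Cox5, Cox6, Cox7, Cox8 or Atp5, without pseudogenes. This gave 47 of the 23991 symbols listed: 4 for complex II, 8 for complex III, 18 for complex IV and 17 for complex V. Of these, 37 are general subunits, 7 are tissue isoforms of complex IV, and 3 carry a family name without being standard subunits (Cox7a2l, Atp5s and Atp5sl). All libraries came from NpyCre/+;TRAPlox/lox mice, in which Cre made from the gene of neuropeptide Y acts on a lox allele and lets cells tag their ribosomes. The 2 IP libraries hold RNA precipitated with the tagged ribosomes and the 2 input libraries hold total RNA of the same tissue, with 3 mice pooled in each library. Both groups carry Cre and the lox allele, age and sex are not stated in the labels, and no library from Cre-negative tissue was analysed here.

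The respiratory chain passes electrons from food to oxygen along the inner mitochondrial membrane and stores the energy as a proton gradient across it. Complex II (succinate dehydrogenase) feeds electrons from succinate to ubiquinone, complex III passes them to cytochrome c, and complex IV (cytochrome c oxidase) passes them to oxygen. Complex V (ATP synthase) lets protons flow back and makes ATP. All subunits of complex II are encoded in the nucleus, whereas the catalytic core of complex IV and parts of complexes III and V are encoded by mitochondrial DNA. Several small subunits of complex IV exist as a general isoform and as an isoform known from heart, skeletal muscle, lung or testis. Neurons that fire fast are known for a high demand for mitochondrial ATP.

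Values are FPKM, sequenced fragments scaled by transcript length and library size, so levels of different genes can be set beside each other. They summed to 423985 and 419349 in IP replicates 1 and 2, and to 334759 and 335119 in input replicates 1 and 2. Read totals are unknown, and the authors' confidence limits lay a median of 7.0% to 7.6% of the value away from it for genes at FPKM of 10 to 20. Npy itself was at 1240 and 1167 FPKM in IP and at 105.4 and 99.2 FPKM in input. All 7 GABAergic, 6 Npy and Sst neuron and 6 fast-spiking interneuron markers passed as higher in IP. All 6 oligodendrocyte, all 6 microglial and all 5 tested endothelial and mural markers passed as lower, as did 6 of 7 astrocyte and 6 of 7 glutamatergic markers. In such bulk libraries a larger share of one cell type and more RNA per cell cannot be told apart. Neither can be told apart from a difference between ribosome-bound RNA and total RNA, since all IP libraries hold the first and all input libraries the second. The part of these cell types in the subunit values below was not tested.

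Of the 47 genes, 44 passed the filter for testing (FPKM of 1 or more in 2 or more libraries), and 43 had such levels in all 4 libraries. Log2 changes below are of FPKM + 1, IP over input, and a change passed at an adjusted p under 0.05 (limma, Benjamini-Hochberg over all 12417 genes tested). Of the 44, 42 were higher in IP, 1 was lower (Cox6b2) and 1 did not pass (Cox8b). Over all genes tested 37.0% were called higher and 33.9% lower. The median log2 change of the tested subunit genes was 1.02, beside 0.03 over all genes tested. A rise of at least 1 on the log2 scale was reached by 23 of the 44, beside 3.48% of all genes tested. Both IP values lay above both input values for 42 of the 44, beside 45.0% of all genes.

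**Figure D1:**
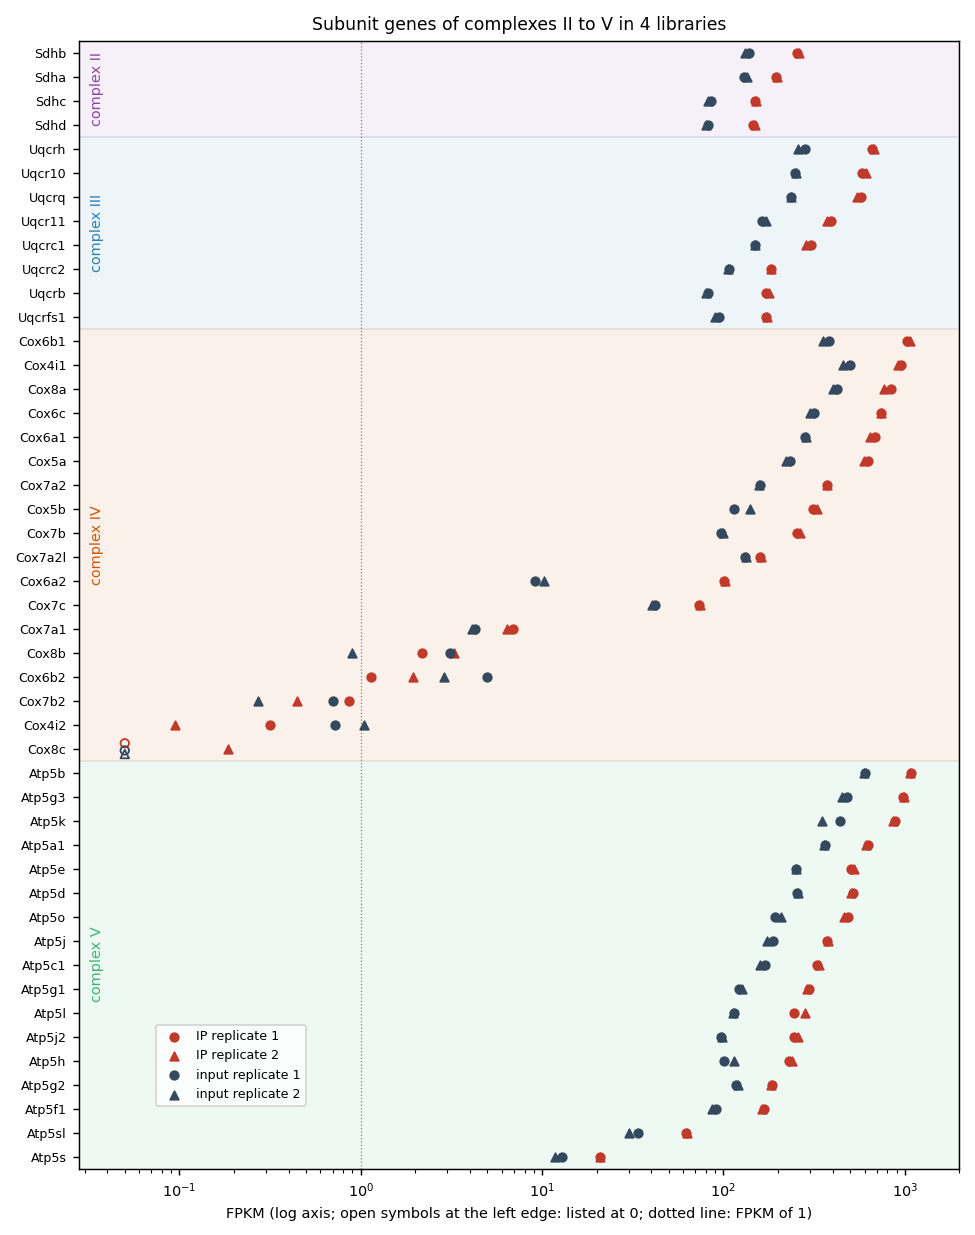
Level of each of the 47 subunit genes in each library, in FPKM on a log axis, grouped by complex; red symbols are IP libraries, dark symbols are input libraries, circles replicate 1 and triangles replicate 2. The IP symbols lie to the right of the input symbols in every row of complexes II, III and V, and the tissue isoforms Cox7a1, Cox8b, Cox6b2, Cox7b2, Cox4i2 and Cox8c fill the low part of complex IV.

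Together the 47 genes made up 4.05% and 4.07% of all FPKM in IP and 2.43% and 2.35% in input. Of the genes chosen by name, those of complex V held the largest part, at 1.71% and 1.73% in IP and 1.085% and 1.05% in input. Complex IV was at 1.45% and 1.44% in IP and 0.806% and 0.779% in input, and complex III at 0.716% and 0.723% in IP and 0.406% and 0.399% in input. Complex II was the smallest, at 0.176% and 0.181% in IP and 0.13% and 0.128% in input. The share of each complex was thus larger in both IP libraries than in both input libraries. Complex I, taken as the 38 symbols that start with Nduf without the assembly factors, stood at 2.36% and 2.38% in IP and 1.37% and 1.32% in input. All 36 of its tested genes were higher in IP, with a median log2 change of 1.08. The difference from complexes II to V was not tested. This set includes Ndufa4, which is now placed in complex IV. Without it complex I was at 2.01% and 2.02% in IP and 1.19% and 1.16% in input, and with it complex IV would be at 1.80% in each IP library and 0.983% and 0.936% in input, which in IP is above complex V.

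The absolute size of these changes depended on how the libraries were scaled. When every library was set to the same sum of 1000000 (rescaling), the median over all genes tested moved to -0.29 and that of the subunit genes to 0.69, with 41 higher, 1 lower and 2 not past the threshold (all genes: 18.4% higher and 53.5% lower). With quantile normalization the median over all genes was 0.05 and that of the subunit genes 0.60, with 40 higher and 1 lower (all genes: 35.3% higher and 30.2% lower). The gene called lower under quantile normalization was Cox7a2l, not Cox6b2. Without a filter 42 of the 47 were higher and 2 lower, beside 24.7% and 28.9% of all genes, and with a filter at FPKM of 5 all 42 tested were higher and 0 lower, beside 46.7% and 27.0%. Pairing each IP with its input gave 42 higher and 1 lower, beside 38.2% and 35.2%. Leaving out 1 library gave 42 or 43 higher and 0 or 1 lower. The share of all genes called higher was then 33.8% or 34.1% without an IP library and 30.7% or 30.3% without an input library, and the share called lower 32.4% or 30.3% without an IP library and 26.8% or 27.4% without an input library. The 43rd higher gene was Cox8b, without input replicate 1.

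The median changes of the complexes were 0.85 for complex II, 1.04 for complex V, 1.14 for complex III and 1.22 for complex IV. This order held in 16 of 17 settings, the exception being the one without a filter on low values, where 3 scarce isoforms joined complex IV and its median was 0.96.

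**Figure D2:**
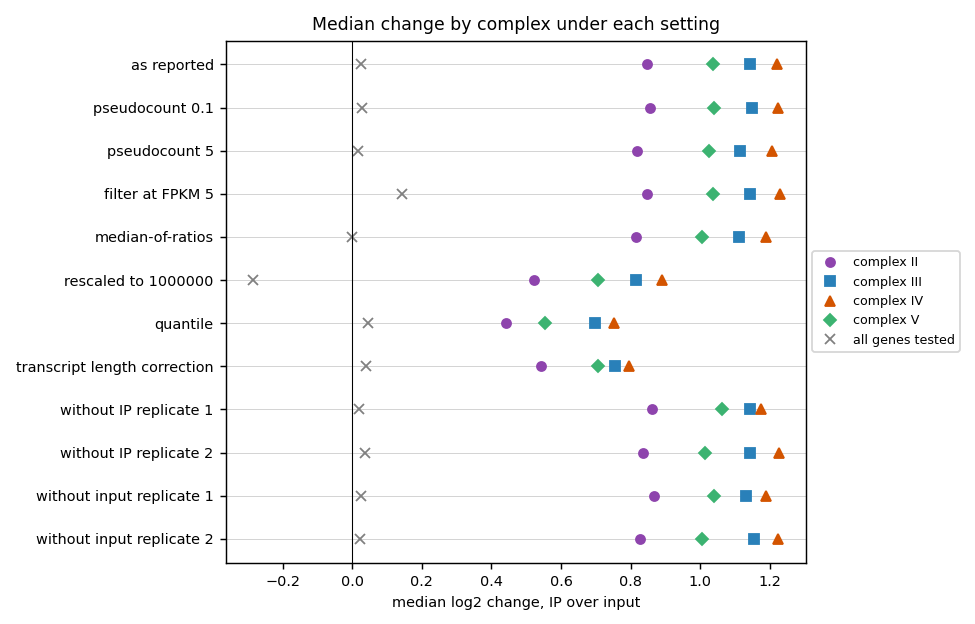
Median log2 change, IP over input, of the tested genes of each complex and of all genes tested (crosses) under 12 of the settings tried. Rescaling moves all symbols to the left together, to -0.29 for all genes and to between 0.52 and 0.89 for the complexes, and the complexes keep the order II, V, III, IV in each row.

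All 4 genes of complex II rose, and their median change was the smallest of the complexes. They were at medians of 172 and 174 FPKM in IP and 108 and 107 FPKM in input. Sdha, which encodes the flavoprotein with the succinate-oxidising site, was at 194 and 196 FPKM in IP and at 130.1 and 135 FPKM in input. Both IP values lay above both input values by 1.47-fold on the mean, the smallest rise of any general subunit (log2 change 0.56, SE 0.05; limma, adjusted p = 0.000131). Among the general subunits, Sdha alone lost its call with quantile normalization (log2 change 0.08, adjusted p = 0.187). Sdhb, the iron-sulphur subunit that hands on the electrons, was at 255 and 262 FPKM in IP and at 138 and 132 FPKM in input. That was a rise of 1.92-fold (log2 change 0.93, SE 0.05; adjusted p = 3.4e-05, limma). The membrane anchors Sdhc and Sdhd, which hold the haem of the complex, stood close together. Sdhc was at 149.6 and 151 FPKM in IP and at 85.3 and 81.7 FPKM in input, and Sdhd at 145 and 149 FPKM in IP and at 81.7 and 80.3 FPKM in input. Their log2 changes of 0.84 and 0.85 differed by less than their SE of 0.05. These patterns depended on transcript length. After correction for it Sdhc was at 0.84 and Sdhd at 0.50, while Sdha and Sdhb were at 0.52 and 0.56. The smallest corrected change of a general subunit was that of Atp5g2, at 0.20, not that of Sdha. In input Sdha and Sdhb were level with each other, at 133 and 135 FPKM on average, whereas in IP Sdhb averaged 259 FPKM and Sdha 195 FPKM, and Sdhb was above Sdha in both IP libraries.

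All 8 genes of complex III rose, by 1.71-fold to 2.48-fold on the mean. The large core proteins and the Rieske protein changed least. Uqcrc2, a core protein, was at 182.01 and 182.05 FPKM in IP and at 108 and 105.4 FPKM in input (log2 change 0.77, SE 0.04; limma, adjusted p = 4.18e-05). Its partner Uqcrc1 changed by 0.98, and Uqcrfs1, the Rieske iron-sulphur protein that carries electrons towards cytochrome c1, by 0.91. The small subunits changed more. Uqcrh, the hinge protein at the cytochrome c1 side, had the highest input level of the complex and its largest change. It was at 661 and 676 FPKM in IP and at 283 and 257 FPKM in input (log2 change 1.31, SE 0.06; limma, adjusted p = 2.51e-05). Uqcr10, Uqcrq, Uqcr11 and Uqcrb, all small subunits, changed by 1.26, 1.25, 1.18 and 1.10. This contrast was only partly kept after correction for transcript length. Uqcrc2 and Uqcrfs1 were still the lowest, at 0.60 and 0.59, but Uqcrc1 at 0.75 was above Uqcrb at 0.68 and close to Uqcr11 at 0.76. Levels within the complex spread further apart in IP. The highest of the 8 stood 3.87-fold above the lowest in each IP library, and 3.44-fold and 3.21-fold in the input libraries.

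Complex IV holds the largest change and also the only fall among the tested genes. Its 10 general subunits all rose, from Cox7c at 1.79-fold to Cox6b1 at 2.86-fold, with a median log2 change of 1.24. Cox4i1, the general isoform of subunit 4, known for the inhibition of the bovine enzyme by ATP, had the highest input level of the 10. It was at 957 and 918 FPKM in IP and at 497 and 457 FPKM in input (log2 change 0.97, SE 0.06; limma, adjusted p = 4.64e-05). Cox6b1, which sits on the cytochrome c side of the enzyme, was at 1034 and 1068 FPKM in IP and at 380.3 and 354 FPKM in input (log2 change 1.52, SE 0.05; limma, adjusted p = 1.66e-05). It was thus above Cox4i1 and the highest of these 10 in both IP libraries. Cox5a, which binds a thyroid hormone metabolite in the bovine enzyme, changed by 1.43, Cox7b by 1.40 and Cox5b, the zinc-binding subunit, by 1.34. Cox7c was the lowest general subunit, at 73 and 74.4 FPKM in IP and at 42 and 40.4 FPKM in input. Within the 10, the highest stood 14.2-fold and 14.4-fold above the lowest in IP and 11.8-fold and 11.3-fold in input.

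Cox6a2 stood apart from all others. It encodes the heart and skeletal muscle isoform of subunit 6a, which is also known from parvalbumin interneurons of the mouse brain, and its locus in the files spans bases 128205435 to 128206366 of chromosome 7 (mm10). It was at 101 and 102.4 FPKM in IP and at 9.14 and 10.2 FPKM in input. The lower confidence limits in IP were 93.6 and 94.5 FPKM and the upper limits in input 11.2 and 12.3 FPKM, so the intervals lay far apart. The level was 10.5-fold higher in IP (log2 change 3.27, SE 0.07; limma, adjusted p = 4.44e-06), and this was the 13th highest log2 change of the 12417 genes. The rescaled change was 3.02, the quantile-normalized one 3.11 and the length-corrected one 2.84. By level, Cox6a2 moved to rank 815 of the genes tested in IP, against rank 6395 in input. An exon of Itgad on the opposite strand overlaps one of its exons by 70 bases, and Itgad was listed at 0 in all 4 libraries.

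The general isoform Cox6a1 was at 683 and 640.3 FPKM in IP and at 283 and 284 FPKM in input, a log2 change of 1.22 (SE 0.05). Of the summed FPKM of both isoforms, Cox6a2 made up 12.9% and 13.8% in IP and 3.13% and 3.48% in input. This was a difference of 10.03 percentage points between the means, and of 9.58 to 10.5 with any 1 library left out. With 2 libraries in each group, the exact two-sided permutation test gives 0.333, the smallest p that its 6 regroupings allow. Fast-spiking interneuron markers moved the same way: Pvalb was at 375 and 297 FPKM in IP and at 32.3 and 29.8 FPKM in input. The 6 markers summed to 584 and 511 FPKM in IP and to 121 and 115 FPKM in input. The Npy and Sst neuron markers summed to 6106 and 6244 FPKM in IP and to 498 and 472 FPKM in input. Markers of striated muscle did not move in this way. Their sum was 18.8 and 18.5 FPKM in IP and 22.4 and 20 FPKM in input, and 0 of the 4 tested was higher and 2 were lower. The largest part of the sum was Acta1, at 10.3 and 8.50 FPKM in IP and 8.64 and 7.71 FPKM in input, which did not pass. The untested muscle markers were below FPKM of 1 in every library. Of these, Ckm and Myl1 had the higher mean in IP, and Actc1, Mb, Tnnt3 and Myl2 the lower. The part of these cell types in the Cox6a2 value was not tested.

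**Figure D3:**
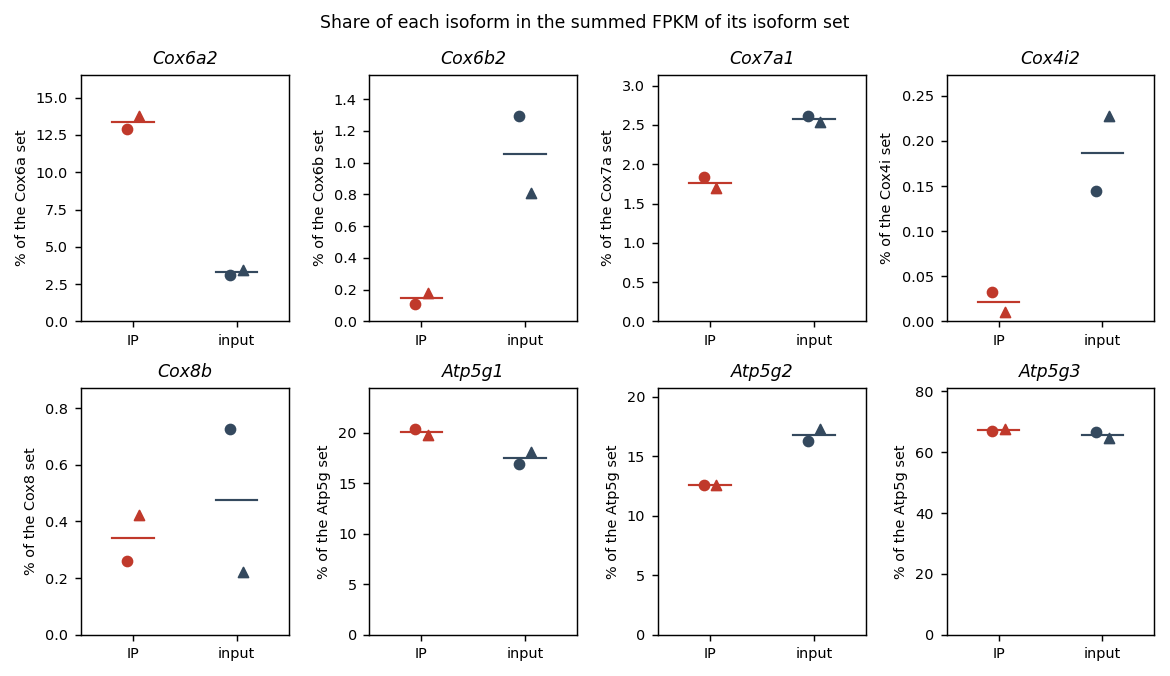
Share that each isoform makes of the summed FPKM of its isoform set, in percent, in the IP libraries (red) and the input libraries (dark); circles are replicate 1, triangles replicate 2 and lines the group means. Cox6a2 is at 12.9% and 13.8% in IP against 3.13% and 3.48% in input, while Cox6b2, Cox7a1, Cox4i2 and Atp5g2 have smaller shares in both IP libraries, and the Cox8b groups overlap.

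The other tissue isoforms were scarce, and their values rest on few reads. Cox6b2, the testis isoform of subunit 6b, lies on chromosome 7 from 4751792 to 4753094. It was at 1.14 and 1.95 FPKM in IP and at 4.99 and 2.89 FPKM in input (log2 change -0.94, SE 0.24; limma, adjusted p = 0.0118). The groups did not overlap, but the confidence intervals of IP replicate 2 (0.497 to 3.40 FPKM) and input replicate 2 (1.32 to 4.47 FPKM) did. The call was lost without input replicate 1 (log2 change -0.63, adjusted p = 0.087) and with quantile normalization (-0.59, adjusted p = 0.0756). Its share of the subunit was 0.11% and 0.182% in IP and 1.30% and 0.81% in input. Of 6 testis marker genes, 4 were listed at 0 in all 4 libraries (Prm2, Tnp1, Ldhc and Pgk2).

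Cox7a1, the heart and muscle isoform of subunit 7a, was at 6.93 and 6.40 FPKM in IP and at 4.25 and 4.10 FPKM in input (log2 change 0.57, SE 0.08; limma, adjusted p = 0.000959). The groups did not overlap, although the confidence intervals of all 4 libraries did. The call was lost after correction for transcript length (0.14, adjusted p = 0.261). Since the general isoform Cox7a2 rose more, at 371 and 372 FPKM in IP and 158.1 and 158 FPKM in input, the share of Cox7a1 was smaller in IP. It was 1.84% and 1.69% in IP and 2.62% and 2.53% in input (exact permutation p = 0.333, the smallest possible). Brown fat, where Cox7a1 and Cox8b are also known, has markers that summed to 4.18 and 3.41 FPKM in IP and to 1.54 and 2.21 FPKM in input. Nearly all of this is Cidea, at 4.14 and 3.18 FPKM in IP and 1.51 and 2.21 FPKM in input, while Ucp1 was listed at 0 in both IP libraries and Adipoq and Fabp4 were at or near 0 in all 4. Their part in these values was not tested. Cox8b, the heart and muscle isoform of subunit 8, was at 2.17 and 3.26 FPKM in IP and at 3.09 and 0.896 FPKM in input. Its groups overlapped and it did not pass (log2 change 0.40, SE 0.35; limma, adjusted p = 0.338). Without input replicate 1 its change was 0.96 (adjusted p = 0.0281) and without input replicate 2 it was -0.15 (adjusted p = 0.569), so its direction rests on single input libraries.

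The remaining 3 isoforms stayed below the filter and were not tested. Cox4i2, known from lung and from pericytes of brain vessels, was at 0.316 and 0.095 FPKM in IP and at 0.721 and 1.04 FPKM in input. Both IP values lay below both input values, but the confidence interval of IP replicate 1 reached 0.633 FPKM and that of input replicate 1 began at 0.211 FPKM. The endothelial and mural markers summed to 3.26 and 3.87 FPKM in IP and 27.6 and 28.2 FPKM in input. Their part in the Cox4i2 value was not tested. Cox7b2, a testis isoform, was at 0.864 and 0.445 FPKM in IP and at 0.702 and 0.271 FPKM in input. Cox8c, also a testis isoform, was listed at 0 in IP replicate 1 and in both input libraries and at 0.186 FPKM in IP replicate 2.

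Cox7a2l, which encodes a factor that joins complexes III and IV into a supercomplex, rose far less than the subunits it resembles. It lies on chromosome 17 from 83501917 to 83514333 and was at 159 and 161 FPKM in IP and at 132 and 133 FPKM in input. The change was 1.21-fold (log2 change 0.27, SE 0.04; limma, adjusted p = 0.00196). Its direction depended on the scaling: the rescaled change was -0.06 (adjusted p = 0.255), the quantile-normalized one -0.19 (adjusted p = 0.0102) and the length-corrected one -0.10 (adjusted p = 0.0768). In each of these settings it lay below the median of complex IV.

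The 17 genes of complex V all rose, in each of the settings tried. The catalytic F1 head changed by 0.77 to 1.04 on the log2 scale, the stalk by 0.89 to 1.24 and the membrane part Fo by 0.63 to 1.36. Their medians were 0.99, 1.09 and 1.18, and 0.69, 0.67 and 0.76 after correction for transcript length. Atp5b, the catalytic beta subunit, had the highest input level of all 47 genes. It was at 1083 and 1069 FPKM in IP and at 603 and 596 FPKM in input (log2 change 0.84, SE 0.04; limma, adjusted p = 3.51e-05). Atp5a1, its alpha partner in the same ring, was at 626 and 612 FPKM in IP and at 364 and 359.5 FPKM in input, with a change of 0.77 (SE 0.04). The small subunit f of the membrane part, Atp5j2, changed most. It was at 246 and 257 FPKM in IP and at 96.5 and 98.6 FPKM in input (log2 change 1.36, SE 0.05; limma, adjusted p = 1.63e-05). Among the 15 subunits of complex V the highest stood 6.51-fold and 6.54-fold above the lowest in IP. In input it was 6.60-fold and 6.91-fold, so unlike in complexes III and IV the levels were not further apart in IP. Atp5s, the coupling factor B, and Atp5sl, now known as a complex I assembly factor, changed by 0.72 and 0.95 from levels far below the subunits, at 12.3 and 31.9 FPKM on average in input.

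A set of 3 genes encodes the c subunit that forms the rotating ring. Their mature proteins are known to be identical, and they differ in the targeting peptide and in regulation. Atp5g3 was the most abundant, at 981 and 986 FPKM in IP and at 480.4 and 449.8 FPKM in input (log2 change 1.08, SE 0.05). Atp5g1 was at 298 and 289 FPKM in IP and at 122 and 126 FPKM in input (log2 change 1.24, SE 0.05). Atp5g2 was at 184 and 183 FPKM in IP and at 117 and 120.4 FPKM in input, the smallest change of the complex (log2 change 0.63, SE 0.04; limma, adjusted p = 7.87e-05). In input Atp5g1 and Atp5g2 were close, whereas in IP Atp5g1 was well above Atp5g2 in both libraries. The share of Atp5g2 among the 3 genes was 12.6% in each IP library and 16.3% and 17.3% in input. That of Atp5g1 was 20.4% and 19.8% in IP and 16.9% and 18.1% in input, and that of Atp5g3 67% and 67.7% in IP and 66.8% and 64.6% in input. The differences were -4.21, 2.57 and 1.64 percentage points, each with the smallest exact permutation p of 0.333. That of Atp5g3 was 0.547 without input replicate 2 and 2.74 without input replicate 1, so its size rests on single input libraries.

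**Figure D4:**
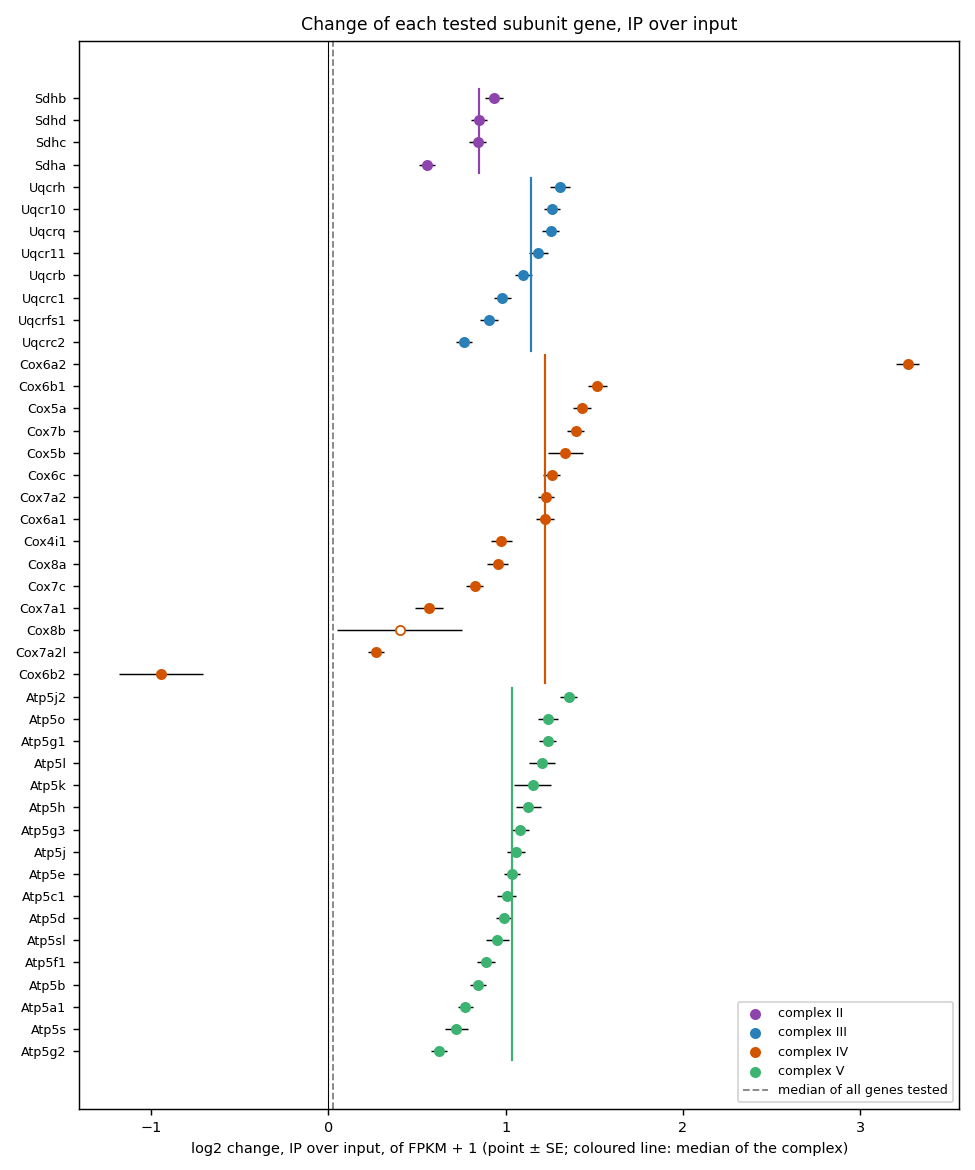
Log2 change, IP over input, of FPKM + 1 for each of the 44 tested subunit genes (point ± SE), sorted within each complex, with the median of the complex as a coloured line and that of all genes tested as a dashed line at 0.03; the open symbol did not pass. Cox6a2 lies at 3.27, Cox6b2 at -0.94, and the general subunits between 0.56 (Sdha) and 1.52 (Cox6b1).

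Among the 37 general subunits, shorter transcripts changed more. Across these genes, which are not independent replicates and come from the same 4 libraries, Pearson's r of log2 transcript length with the log2 change was -0.456. The same r was -0.307 over the 12347 genes tested that have a length. The tested subunit genes had a median transcript of 787 nt, against 3188 nt over all genes tested. After correction of each library for transcript length, the median change of the subunit genes was 0.71 and that of all genes 0.04, with 40 higher and 1 lower (all genes: 36.6% higher and 30.1% lower). All 37 general subunits passed as higher after this correction, from 0.20 (Atp5g2) to 1.37 (Atp5g1). The value of Atp5g1 rests on an annotated transcript of 4715 nt, which is longer than the whole gene in the files (chromosome 11, 96072793 to 96075694).

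**Figure D5:**
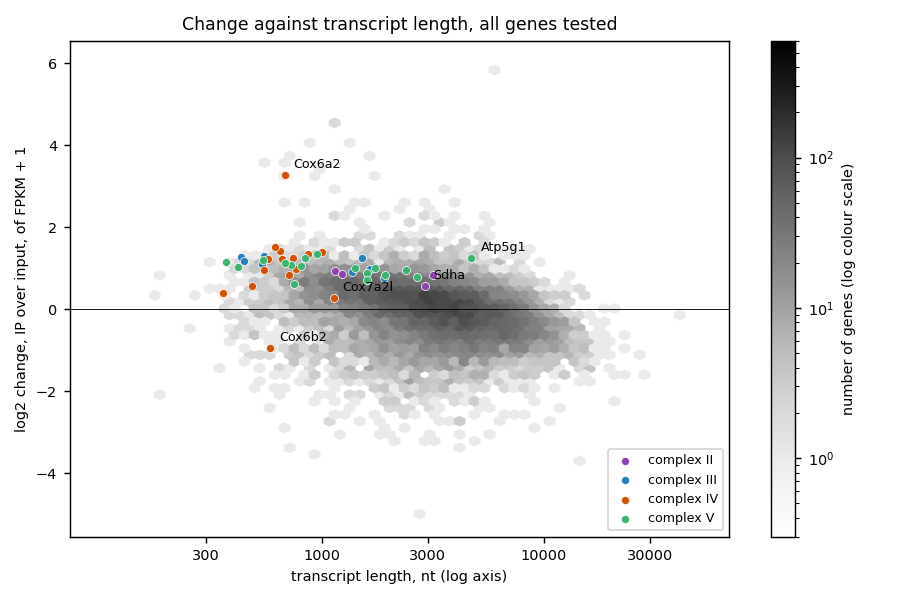
Log2 change, IP over input, of FPKM + 1 against transcript length in nt on a log axis, for all genes tested (grey, darker with more genes) and for the subunit genes coloured by complex. The subunit genes lie among short transcripts and mostly near 1, with Cox6a2 at 3.27, Cox7a2l at 0.27 and Cox6b2 at -0.94 apart from them.

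The promoters of these genes were set beside their changes because nearly all of them moved together. RefSeq windows of GRCm38.p6, from 250 bases before to 50 after the start, were available for 37 of the 47 genes, 30 of them general subunits and 4 tissue isoforms. Both strands were searched for the letters of 5 motifs known from such promoters or from core promoters, and no 2 motifs overlapped in any window. The NRF1 palindrome, printed in capitals at base -162 of Cox6a1 and base 31 of Uqcrc1 below, was in 4 of 37 genes (Atp5g2, Atp5k, Cox6a1 and Uqcrc1), or 10.8%, against 1.07% of all 27025 genes with a window. The ETS letters CCGGAAG, bound by the GABP factor, were in 12 genes, or 32.4%, against 9.93%. Both of these motifs contain CpG, and the 27025 genes were neither matched for CpG nor limited to the genes tested here. The YY1 letters AAGATGGC were in 10.8% against 3.19%, and AAGGTCA, the core letters bound by oestrogen-related receptors, in 13.5% against 5.38%. TATAAA was in 8.11% against 15.7%, and 2 of its 3 genes were tissue isoforms (Cox7b2 and Cox8b). None of the 4 tissue isoforms held the NRF1, ETS, YY1 or AAGGTCA letters, which says only that these letters are not in these windows. Windows are printed for a general isoform with both NRF1 and ETS letters (Cox6a1, chr5:115348909-115349208, minus strand), a complex III core protein with NRF1 letters (Uqcrc1, chr9:108936398-108936697, plus strand), and the general and muscle isoforms of subunit 8. Those are Cox8a (chr19:7217567-7217866, minus strand) and Cox8b (chr7:140900397-140900696, minus strand). Capitals mark the matches, with NRF1 the longest of them, and CTTCCGG is the ETS motif read on the other strand.
Cox6a1: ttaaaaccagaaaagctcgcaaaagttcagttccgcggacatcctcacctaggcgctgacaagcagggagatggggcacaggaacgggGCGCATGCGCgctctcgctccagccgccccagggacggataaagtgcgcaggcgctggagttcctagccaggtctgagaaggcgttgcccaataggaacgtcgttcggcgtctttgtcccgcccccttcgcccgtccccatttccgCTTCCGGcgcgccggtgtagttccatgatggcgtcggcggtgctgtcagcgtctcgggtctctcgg
Uqcrc1: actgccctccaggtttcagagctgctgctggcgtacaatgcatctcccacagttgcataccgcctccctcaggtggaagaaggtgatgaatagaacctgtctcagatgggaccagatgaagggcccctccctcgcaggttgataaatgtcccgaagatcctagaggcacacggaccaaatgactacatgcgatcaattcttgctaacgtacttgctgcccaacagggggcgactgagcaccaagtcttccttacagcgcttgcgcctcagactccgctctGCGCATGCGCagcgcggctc
Cox8a: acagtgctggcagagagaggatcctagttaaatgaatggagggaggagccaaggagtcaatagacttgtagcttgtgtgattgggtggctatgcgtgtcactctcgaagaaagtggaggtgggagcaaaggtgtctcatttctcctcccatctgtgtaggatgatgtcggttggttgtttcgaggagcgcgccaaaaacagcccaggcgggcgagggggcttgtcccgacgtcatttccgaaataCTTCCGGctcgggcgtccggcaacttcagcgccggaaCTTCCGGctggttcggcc
Cox8b: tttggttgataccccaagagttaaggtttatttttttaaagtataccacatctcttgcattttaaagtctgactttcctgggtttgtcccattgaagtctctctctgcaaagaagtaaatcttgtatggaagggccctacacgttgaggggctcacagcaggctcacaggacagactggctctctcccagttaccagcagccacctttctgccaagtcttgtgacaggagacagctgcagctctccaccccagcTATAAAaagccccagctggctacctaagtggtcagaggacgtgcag
The first window held 32 CpG and the Cox8a window 19, whereas that of Cox8b held 2, against a median of 7 over all windows. The other tissue isoforms were not below that median, with 10 in Cox6b2, 10 in Cox7b2 and 7 in Cox7a1. Of the 30 general subunits with a window, 29 held more CpG than the median, and Cox7b held 5. Of the 4 printed genes, the 3 general ones changed by 1.22 (Cox6a1), 0.98 (Uqcrc1) and 0.96 (Cox8a) on the log2 scale, and Cox8b did not pass. General subunits with none of the 5 motifs in their windows changed by 0.56 (Sdha) to 1.43 (Cox5a). Those with a motif changed by 0.63 (Atp5g2) to 1.52 (Cox6b1). Cox6a2 had no window, and whether the motifs go with the changes was not tested.

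Genes that act with these subunits under other names moved the same way. Cyc1, the cytochrome c1 of complex III, was at 297 and 291 FPKM in IP and at 144.9 and 145.3 FPKM in input (log2 change 1.01). Cycs, the mobile cytochrome c, was at 92.6 and 98.3 FPKM in IP and at 45.2 and 40.4 FPKM in input (1.14). Ndufa4 was at 1476 and 1509 FPKM in IP and at 594 and 528 FPKM in input (1.41), above every one of the 18 complex IV genes chosen by name in all 4 libraries. Usmg5, a small ATP synthase subunit, changed by 1.09. All 4 of these were higher in IP. The core subunits encoded by mitochondrial DNA were not analysed here.

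In the main setting assembly factors had smaller median changes than the subunits they serve, a difference that was not tested. It was not corrected for transcript length. Many factors are longer than the subunit median of 787 nt, such as Sdhaf3 at 4323 nt, and some are shorter, such as Uqcc2 at 500 nt. The difference depended on the scaling for complexes II and V. With quantile normalization Sdhaf1, Sdhaf2, Sdhaf4 and Sdhaf3 changed by 0.22, 0.30, 0.56 and 0.91, around the median of 0.44 of the complex II subunits. Atpaf2, Atpaf1, Tmem70 and the inhibitor gene Atpif1 changed by 0.43, 0.43, 0.58 and 0.64, around the median of 0.55 of the complex V genes. For complex IV 17 of 20 tested factors were higher in IP and 1 was lower, with a median of 0.54, beside 37.0% higher and 33.9% lower over all genes. When rescaled, 11 were higher and 1 lower (all genes: 18.4% and 53.5%). With quantile normalization 18 were higher and 1 lower (all genes: 35.3% and 30.2%). Coa3, a factor for the first steps of complex IV assembly, rose by 0.99 and Cox17, a copper chaperone, by 0.75. Coa5 fell by 0.39 on the log2 scale, with 22.8 and 23.9 FPKM in IP and 30.4 and 31.6 FPKM in input. Cmc1, whose values change most, was at 25.1 and 22 FPKM in IP and listed at 0 in both input files, and Sco2 and Pet117 were listed at 0 in all 4. Whether Cmc1 was absent from input or not quantified there was not tested, and it counts among the 17 higher factors. The 4 factors of complex II (median 0.64, highest Sdhaf3 at 1.02) and 5 of 6 of complex III (median 0.63, highest Uqcc1 at 1.04) were higher in IP, and when rescaled 2 of 4 and 4 of 6 were. Ttc19 was the one of complex III that did not pass (0.11, adjusted p = 0.278). All 4 genes of the complex V list were higher. The inhibitor gene Atpif1, whose product blocks reverse rotation of ATP synthase, was the most abundant, at 662 and 657 FPKM in IP and at 304 and 286 FPKM in input (1.16).

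All 11 genes of the membrane and matrix list were higher in IP, beside 37.0% of all genes, with a median of 0.60, from Opa1, a fusion protein, at 0.20 to Slc25a3, the phosphate carrier, at 0.82. Rescaling left 8 higher calls and 0 lower ones (all genes: 18.4% and 53.5%), and quantile normalization 6 higher calls and 1 lower one (all genes: 35.3% and 30.2%). Cs encodes citrate synthase, whose enzyme activity, rather than its RNA, is often used as a measure of mitochondrial content. Cs was at 129 and 134 FPKM in IP and at 109.5 and 109.3 FPKM in input (0.26, adjusted p = 0.00262, limma). Its direction depended on the scaling: the rescaled change was -0.07 (adjusted p = 0.234) and the quantile-normalized one -0.17 (adjusted p = 0.0191). Tomm20, an import receptor, and Opa1 also turned, to -0.07 and -0.12 when rescaled (adjusted p = 0.196 and 0.0793) and to -0.10 and -0.01 under quantile normalization (adjusted p = 0.0943 and 0.858). Of 8 transcriptional regulators of mitochondrial genes, 4 were higher, 3 lower and 1 not past the threshold, shares near those over all genes (37.0% higher and 33.9% lower). The counts were 4 higher and 4 lower when rescaled (all genes: 18.4% and 53.5%) and 4 higher and 1 lower under quantile normalization (all genes: 35.3% and 30.2%). Esrra, a nuclear receptor that acts with the coactivator Ppargc1a, was at 60.5 and 52.1 FPKM in IP and at 23.9 and 23.5 FPKM in input (1.21). Ppargc1a was at 15.6 and 16.3 FPKM in IP and at 8.64 and 10.2 FPKM in input (0.71), whereas its relatives Ppargc1b and Pprc1 changed by -0.51 and -0.37, calls that quantile normalization removed (-0.12 each, adjusted p = 0.289 and 0.207). Nrf1 did not pass (-0.11, adjusted p = 0.281), but was lower when rescaled (-0.43, adjusted p = 0.008). Gabpa, the remaining lower call, was listed at 0 in both IP libraries and at 4.68 and 4.49 FPKM in input. One of its exons overlaps Atp5j by 175 bases on the opposite strand, and no source used here says that reads were assigned by strand. Overlap with an exon of another annotated gene was found for 10 of the 47 subunit genes, and for each of these reads of the partners cannot be told apart.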

How the data were processed

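Amygdala RNA was sequenced as 100 bp single-end reads from 2 IP and 2 input libraries of 3 pooled mice each, with 200 ng of RNA per library, per the series' design text. TopHat with default parameters aligned them to mm10 with an iGenomes annotation, and the authors deposited gene-level FPKM from Cufflinks with confidence limits, per the file headers and the submitters' processing notes. Tool versions and scaling between libraries are not given in the sources used here. Processed pseudogenes can take or lend reads of these genes.

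Groups and numbers came from sample titles. The source description of IP replicate 2 says replicate 1; its title was used. The design text gives each IP a corresponding input, which pairs the libraries, and deviations of IP and input replicate 1 from their group means correlated at 0.163 across genes. Replicates were not duplicates: no gene at FPKM of 5 or more in both had the same value in both, a count of 0. The p-values measure the spread between 2 pools per group.

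The 8 entries with a failed status and 1275 small RNA entries were left out, and the entry with the highest mean was kept per symbol. Genes with FPKM of at least 1 in 2 libraries were tested as log2(FPKM + 1), which understates changes of low genes, with lmFit and eBayes with trend in limma 3.58.1 (R 4.3.3), unpaired, two-sided, at an adjusted p of 0.05.  A count test was not run on FPKM. The test was checked on simulated data. Transcript lengths are those of the longest protein-coding GENCODE vM21 transcript, and the length correction took a lowess curve (span 0.3) from each library. Coordinates are 1-based. Genes with values in every library were the isoform sets, complex II, genes that fell or did not pass, and the highest and the most and least changed gene of each other complex. Other genes, among them Uqcrc1, Cox6b1, Cox5a, Cox7c and Atp5a1, were named after their values were seen, and the motifs were chosen after the data were seen. The subunit genes and the gene lists were chosen with earlier results of these data known.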

Additional observations from a re-analysis of the deposited data

How the results depend on the processing

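Of the 44 tested subunit genes, 39 kept their call in every one of the 16 alternatives in which they were tested, and the exceptions were Cox6b2, Cox7a1, Cox7a2l, Cox8b and Sdha. Pairing IP with input as a replicate block gave 42 higher and 1 lower subunit gene, as without it, and 4746 higher and 4370 lower genes in all, and changed no call on a subunit gene. Rescaling to a sum of 1000000 gave 2280 higher and 6637 lower genes in all, against 4597 and 4206, and a filter at FPKM of 5 gave 2437 lower genes. The number of lower subunit genes was 2 without a filter, as Cox4i2 was then tested, and 0 with the filter at FPKM of 5, where Cox6b2 was not tested. With 1 library left out it ranged from 0 (without input replicate 1) to 1. The median change of the subunit genes was 0.69 after rescaling, 0.60 with quantile normalization and 0.71 with the length correction.

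Cox7a2l turned to -0.061 after rescaling, -0.19 with quantile normalization and -0.10 with the length correction. Cox8b turned to -0.0072 with the length correction, and ranged from -0.15 (without input replicate 2) to 0.956 (without input replicate 1, adjusted p = 0.0281, limma) with 1 library left out. The share of Cox8a, 0.12 percentage points larger in IP, ranged from -0.13 to 0.37 with 1 library left out, and that of Cox8b from -0.38 to 0.12. The cause was not tested. Testing only genes with values above 0 in every library, an alternative chosen after seeing the data, changed no call on a subunit gene. With 2 libraries per group, isoform shares cannot pass an exact test.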
